A study of Sus scrofa with 13 samples.

Results

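Of the 10813 long noncoding RNAs (lncRNAs) listed in pig libraries of total RNA, 36 (0.333%) were restricted to the heart under a fixed rule. The rule took a lncRNA whose level in heart was at least 1 RPKM (reads on a transcript scaled by its length and by all reads of the library) and higher than in any other organ at day 240, with a tau of at least 0.9 over the 9 organs sequenced at that age. Tau is the mean shortfall of the other 8 organs from the highest organ, computed on the log2(RPKM + 0.1) scale with its lowest possible value set to 0. It is 0 for a transcript at the same level everywhere and 1 for a transcript found in a single organ. The members were therefore chosen by their values in these 9 libraries, and those values are given here as a description.

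The 9 organs were heart, liver, spleen, lung, kidney, testis, ovary, adipose tissue and longissimus dorsi, the long skeletal muscle of the back, all from Guizhou mini-pigs at postnatal day 240. Longissimus dorsi of the same breed was also sequenced at day 0 and day 30. A tissue mixture and a muscle mixture combined RNA of multiple breeds and time points in equal quantities, from multiple tissues and from longissimus dorsi respectively. No animal was said to carry an altered gene or to have received a treatment. The labels do not give the heart chamber sampled, the number of animals behind a library or the organs in the tissue mixture. There was 1 library per organ, stage or mixture, so no difference below has a replicate check and no test between conditions was possible.

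LncRNAs are transcripts longer than short regulatory RNAs that are not translated into known proteins. Many act in the nucleus, where they bind chromatin or proteins at or near the gene they come from, and many are made in a few cell types only. In the heart, such RNAs are known from both muscle cells and supporting cells, and some are transcribed next to or against genes of the contractile apparatus. Heart muscle and skeletal muscle share much of that apparatus and differ in the forms of myosin, troponin and actin that they use. The roles of the 36 transcripts named here are not known from the sources used. They are listed by the number of an assembled transcript (TCONS), and their sequences and genome positions were not analysed here.

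The heart library matched its label by its genes. Among the genes of the contractile apparatus, 7 of 8 that could be matched by symbol were highest in heart among the 9 organs, and TPM1, a tropomyosin shared by muscles, was higher in skeletal muscle. TNNT2, the troponin T of heart muscle, was at 4075 RPKM in heart, 6.07 in longissimus dorsi at day 240 and at most 21.2 in the 7 other organs. TNNC1, the troponin C that heart and slow skeletal muscle share, was at 1408 RPKM in heart and 383 in skeletal muscle. MYBPC3, the myosin-binding protein C of heart muscle, was at 236 RPKM in heart, 0.405 in skeletal muscle and at most 1.23 elsewhere. MYH6, the alpha myosin heavy chain of heart muscle, was at 4521 RPKM in heart and 768 in skeletal muscle, and is uncertain because its sequence is nearly identical to that of MYH7. RYR2, the calcium release channel of heart muscle, was at 121 RPKM in heart against at most 9.71 in the 7 other organs, and KCNJ5, a potassium channel subunit of the atria and pacemaker tissue, was at 6.59 against at most 0.938.

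Fewer genes of the other heart lists were highest in heart, with 3 of 8 for calcium handling and ion channels, 1 of 7 for transcription factors and 2 of 3 for secreted peptides and their processing. GJA1, the main gap junction protein of heart muscle, was at 25.6 RPKM in heart and 60.6 in ovary. MEF2C, a transcription factor of both muscles and the highest of its list in heart, was at 8.30 RPKM there and 32.8 in skeletal muscle. The transcription factor highest in heart among the organs was TBX20, at 7.47 RPKM in heart and at most 0.173 in the 7 other organs, while TBX5 was at 5.19 in heart and 6.63 in lung. CORIN, the protease that activates natriuretic peptides, was at 11.3 RPKM in heart. The 3 genes matched of the ventricular list were MYL3, the ventricular light chain, at 1521 RPKM, HEY2, a repressor of atrial genes, at 5.68, and IRX4, a transcription factor of the ventricle, at 0.934 (1.28 in lung). The 4 of the atrial list were KCNJ5 at 6.59 RPKM, MYL4, the atrial light chain, at 2.42, GJA5, a gap junction protein, at 0.358, and SLN, the calcium pump inhibitor sarcolipin, at 0.317. Apart from MYL3, the levels of both lists overlapped. The plot of heart genes sets these levels beside those of skeletal muscle and the 7 other organs.

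**Figure D1:**
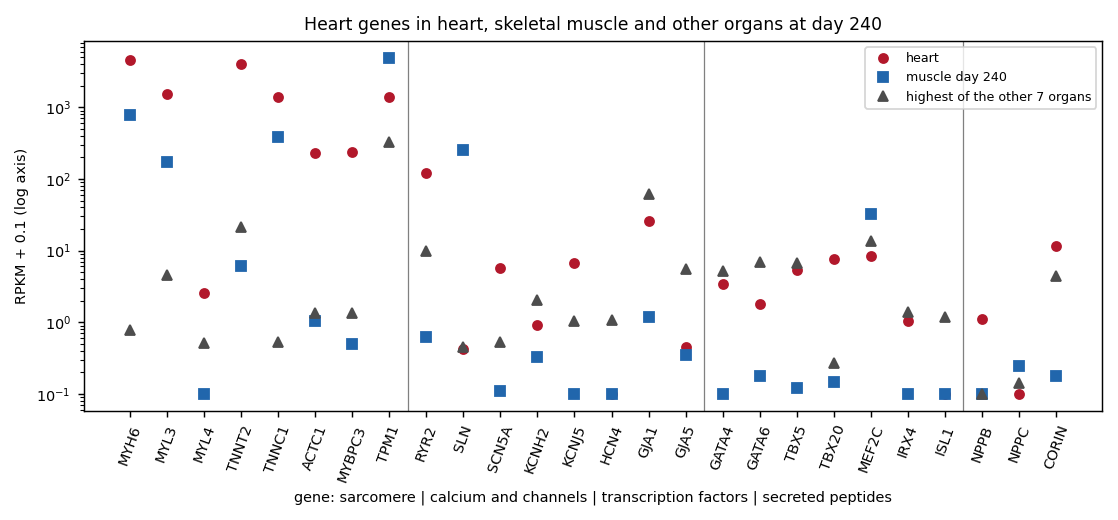
The vertical axis gives RPKM + 0.1 on a log scale for each heart gene matched by symbol, in 1 library per organ. Red circles are heart, blue squares longissimus dorsi at day 240 and grey triangles the highest of the other 7 organs, with the grey lines separating the 4 gene lists. TNNT2 (4075 RPKM) and MYBPC3 (236 RPKM) lie far above skeletal muscle in heart, while TPM1, SLN and MEF2C lie above heart in skeletal muscle.

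Markers of other cell types in a heart were present at lower levels than in another organ. None of the 3 endothelial, 3 fibroblast, 4 smooth muscle, 3 macrophage, 1 fat cell and 1 mesothelial genes matched was highest in heart. Their summed level in heart was 16.8 RPKM for endothelium (7.36 to 63.2 in the 7 other organs), 64.5 for fibroblasts (5.11 to 874), 21.3 for smooth muscle (4.42 to 325), 2.35 for macrophages (2.05 to 25) and 0.278 for mesothelium (0 to 5.10). PLIN1, the lipid droplet protein of fat cells, was listed at 0 in heart. TNNC2, the troponin C of fast skeletal fibres, was at 7.47 RPKM in heart and 10378 in skeletal muscle at day 240. ACTA1, the skeletal actin that heart muscle also makes, was at 538 RPKM in heart, 2998 in skeletal muscle and at most 2.91 in the 7 other organs. The genes matched of the slow fibre list were TNNC1, TNNT1, a slow troponin T, at 89.2 RPKM in heart and 987 in skeletal muscle, and TNNI1, a slow troponin I, at 0.186 and 72.7. Which cell type of the heart made each of the 36 lncRNAs was not tested. In these libraries of whole tissue, fewer cells of a type and less RNA per cell cannot be told apart.

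Reads could be recovered from the RPKM values as whole numbers, which gives the depth behind each level. The total of reads used in RPKM was 35977890 in heart and between 21685316 and 38581416 in the 11 single-tissue libraries, and the tissue mixture had 108337358 and the muscle mixture 63015726. The part of this total that fell on listed features was 19.3% in heart and ran from 11.6% in spleen to 38.0% in ovary among the single tissues. Reads on lncRNAs ran from 49444 in liver to 333989 in testis, with 200272 in heart, so a value of 0 does not weigh the same in each organ. The 36 lncRNAs held 3804 reads in heart, 1.9% of the reads on lncRNAs there. They had between 1 and 1235 recovered reads each, with a median of 42.5. In all, 11 had at least 100 reads, 24 at least 20 and 12 fewer than 20. For the 16 members above 0 in 1 to 3 libraries, the smallest length that gives whole reads was used, so their reads are lower bounds and their intervals are wider than those of a larger number of reads would be. Intervals in this text are exact Poisson 95% intervals, or exact 95% intervals of a ratio given the sum of the reads. Both cover counting error only and not differences between animals or libraries.

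Levels in heart were low for most members. They ranged from 1.01 to 19.3 RPKM with a median of 2.16, and 17 lay between 1 and 2, 19 at 2 or more and 3 at 5 or more. The 3 highest, TCONS_00051495, TCONS_00082994 and TCONS_00717503, held 41.9% of the members' reads in heart and 35.8% of their summed RPKM. Lengths could be compared for the 20 members above 0 in at least 4 libraries. Their median was 838.5 nt, with quartiles of 354 and 1538 nt, and the shortest was 246 and the longest 3305 nt. The 4992 lncRNAs of the whole catalogue above 0 in at least 4 libraries had a median of 826.5 nt, with quartiles of 463 and 1513 nt.

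**Figure D2:**
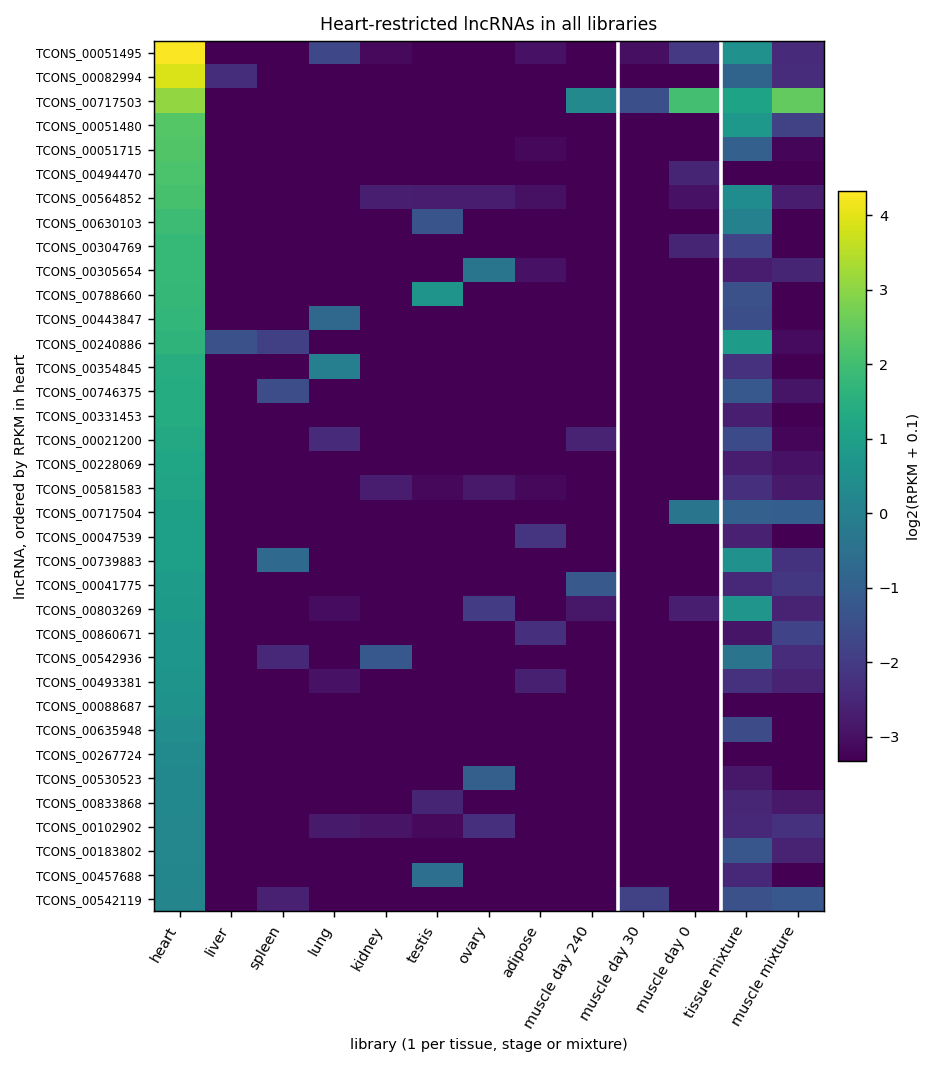
Rows are the 36 lncRNAs in order of RPKM in heart, columns are the 13 libraries, and colour gives log2(RPKM + 0.1) with the darkest shade for 0. White lines set apart the 9 organs at day 240, the 2 earlier muscle stages and the 2 mixtures. The heart column is above 1 RPKM in every row by the rule, 33 of 36 rows are above 0 in the tissue mixture, and TCONS_00717503 is the row with signal in all 3 muscle stages.

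TCONS_00051495 was the highest member. It was at 19.3 RPKM in heart (1235 reads, 18.3 to 20.5), 0.214 in lung (14 reads), 0.0299 in adipose tissue (2 reads) and 0.0155 in kidney (1 read), and at 0 in liver, spleen, testis, ovary and longissimus dorsi at day 240. In the younger muscle it was at 0.142 RPKM at day 0 (9 reads) and 0.0231 at day 30 (1 read). The tissue mixture held 1.36 RPKM (262 reads) and the muscle mixture 0.0895 (10 reads). The level in heart was 90.6 times that of lung (53.8 to 166), an organ that the rule used, and 14.2 times that of the tissue mixture (12.4 to 16.3). Among all lncRNAs in heart it took the 6th place by RPKM.

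TCONS_00082994 was at 14.8 RPKM in heart (175 reads, 12.7 to 17.1). A single read gave 0.0986 RPKM in liver, and the other 7 organs and all earlier muscle stages were at 0. The tissue mixture was at 0.449 RPKM (16 reads) and the muscle mixture at 0.0965 (2 reads). This short transcript of 329 nt was 32.9 times higher in heart than in the tissue mixture (19.7 to 58.9), a wider gap than that of TCONS_00051495.

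TCONS_00717503, of 610 nt, differed from both in that it was also found in skeletal muscle. It was at 8.34 RPKM in heart (183 reads, 7.17 to 9.64), 4.04 in longissimus dorsi at day 0 (88 reads, 3.24 to 4.97), 0.268 at day 30 (4 reads, 0.0731 to 0.687) and 1.10 at day 240 (22 reads, 0.692 to 1.67). All 7 other organs were at 0. The muscle mixture was at 5.52 RPKM (212 reads, 4.80 to 6.31) and the tissue mixture at 2.07 (137 reads, 1.74 to 2.45). No interval of the 3 stages overlapped that of heart, but the level at birth was within a few fold of it, with heart 2.07 times higher (1.59 to 2.70). It was the sole member above 0 in all 3 stages.

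The next 5 members by level were at or near 0 in the other organs, where the rule selects for low values, apart from TCONS_00630103 in testis. TCONS_00051480 was at 4.83 RPKM in heart (45 reads, 3.52 to 6.46), at 0 in the 8 other organs and in all muscle stages, and at 1.60 in the tissue mixture (45 reads) and 0.184 in the muscle mixture (3 reads). TCONS_00051715, of 2021 nt, was at 4.61 RPKM in heart (335 reads, 4.13 to 5.13), with 1 read in adipose tissue, 0 in the 7 other organs, 0.411 in the tissue mixture (90 reads) and 1 read in the muscle mixture. TCONS_00494470 was at 4.38 RPKM in heart (180 reads, 3.76 to 5.07) and at 0 in the 8 other organs and both mixtures, with 3 reads in muscle at day 0 its only signal elsewhere. That transcript stood out in the tissue mixture, since the other 11 of the 12 highest members were above 0 there. Its observed level in heart was 181 times that of 3 reads in the tissue mixture, taking 3 reads as the limit of a library at 0. Counting error of the reads in heart is left out of this value.

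TCONS_00564852 was at 4.21 RPKM in heart (145 reads, 3.55 to 4.96). It had 2 reads each in kidney and testis and 1 read each in ovary, adipose tissue and muscle at day 0, which makes it one of the members found in the most organs although none of them exceeded 0.0575 RPKM. Its level in the tissue mixture was 1.21 RPKM (125 reads), and the muscle mixture held 3 reads. TCONS_00630103 was at 3.69 RPKM in heart (175 reads, 3.16 to 4.28), 0.295 in testis (15 reads) and 0.931 in the tissue mixture (133 reads), and at 0 in every other library. For these 2 transcripts the tissue mixture was nearer to heart than for TCONS_00082994, at ratios of heart to mixture of 3.49 (2.73 to 4.47) and 3.96 (3.14 to 5.0).

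The last 4 of the 12 highest members had a second organ or fewer reads. TCONS_00304769 was at 3.39 RPKM in heart (47 reads, 2.49 to 4.51), at 0 in the 8 other organs, and at 0.192 in the tissue mixture (8 reads), with 1 read in muscle at day 0. TCONS_00305654 was at 3.37 RPKM in heart (106 reads, 2.76 to 4.08) and 0.687 in ovary (13 reads, 0.366 to 1.17), with 1 read in adipose tissue, 4 in the muscle mixture and 5 in the tissue mixture. The ratio of heart to ovary was 4.91 (2.75 to 9.53) for this transcript, between libraries that the rule itself used. TCONS_00788660 was at 3.29 RPKM in heart (44 reads, 2.39 to 4.41) and 1.46 in testis (21 reads, 0.906 to 2.24), the highest level of any member in another organ, with a ratio of 2.25 (1.31 to 3.98). TCONS_00443847 was at 3.23 RPKM in heart (25 reads, 2.09 to 4.77), 0.503 in lung (4 reads, 0.137 to 1.29) and 0.258 in the tissue mixture (6 reads), and at 0 elsewhere. Ratios between organs depend on the scaling. With RPKM scaled by the median ratio, that of heart to ovary became 17.2 for TCONS_00305654 and that of heart to testis 5.22 for TCONS_00788660, and that of heart to lung 161 for TCONS_00051495. The ratio of heart to longissimus dorsi at day 240 became 4.72 for TCONS_00717503, in place of 7.55. Heart stayed the highest organ for 36 of 36 members, but this is no check of the rule. The scaling lowered the ratio of heart only to liver (factor 0.590) and longissimus dorsi (0.625), too little to change the order. The plot of heart against the next organ shows how far apart the levels lie as deposited.

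**Figure D3:**
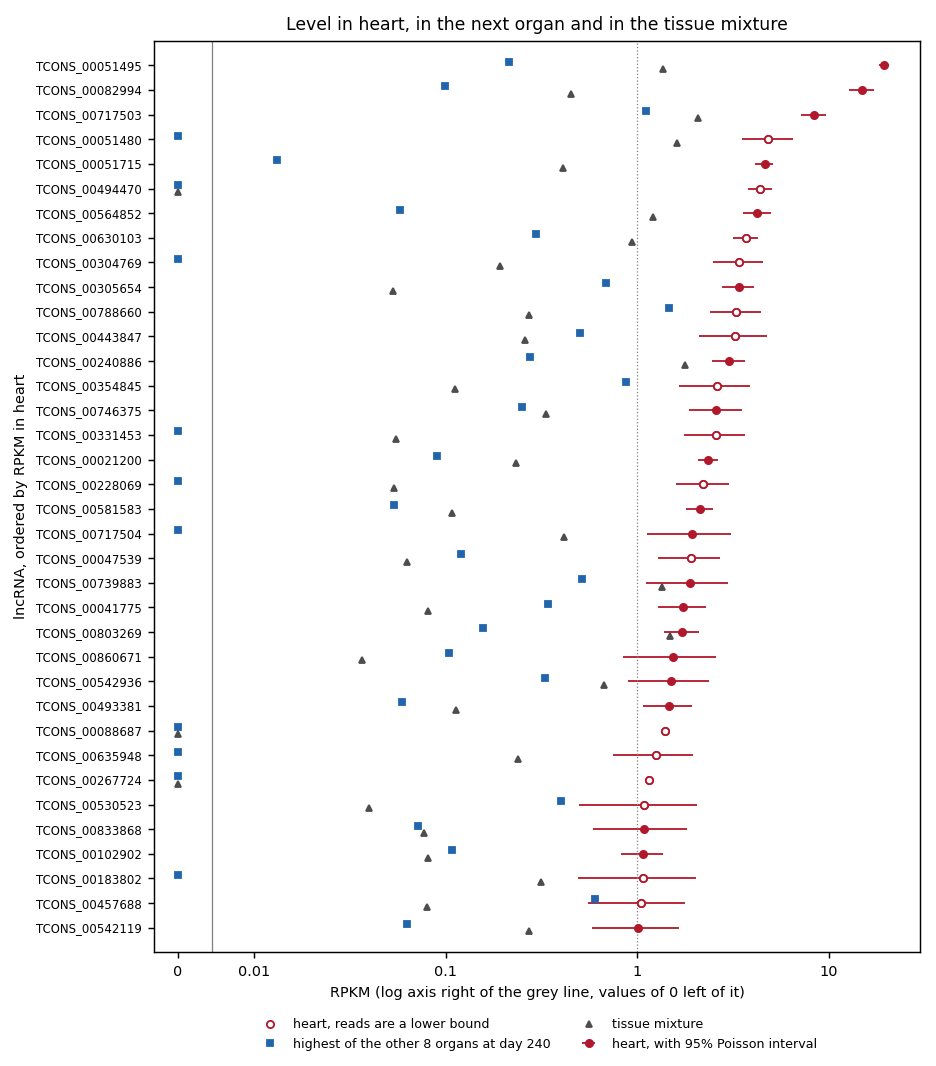
The horizontal axis gives RPKM on a log scale, with values of 0 placed left of the solid grey line, for each of the 36 lncRNAs in order of RPKM in heart. Red circles are heart with the exact Poisson 95% interval, blue squares the highest of the other 8 organs at day 240 and grey triangles the tissue mixture, and the dotted line marks 1 RPKM. TCONS_00788660 and TCONS_00717503 are the squares right of that line, and open circles are members above 0 in fewer than 4 libraries, whose reads are lower bounds and whose intervals are drawn at that bound, with none for TCONS_00088687 and TCONS_00267724.

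The organ with the second highest level varied among the members. It was testis, ovary, lung or adipose tissue for 4 members each, spleen or kidney for 3 each, and liver or skeletal muscle for 2 each. For the 97 lncRNAs highest in heart that missed the tau limit, it was lung or testis for 20 each, adipose tissue for 13, kidney or ovary for 12 each, skeletal muscle for 9, spleen for 6 and liver for 5. Of the 36 members, 10 were above 0 in heart only among the 9 organs. Of the others, 16 were found in exactly 1 further organ, 5 in 2, and 5 in 3 or 4. For 9 members this signal was at most 3 reads in the next organ, and for 17 it was over 3 reads. Summed over the members, RPKM was 119 in heart and between 0.374 in liver and 2.51 in testis in the 8 other organs.

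The 10 members with tau of 1 shared the highest value and ranged from TCONS_00494470 and TCONS_00051480 to transcripts with a handful of reads. TCONS_00088687 and TCONS_00267724 were above 0 in heart alone among all 13 libraries, at 1.39 and 1.15 RPKM. With a single value each, their reads could not be determined beyond lower bounds of 1 and 5, and the length of 20 nt that 1 read would give the first is too short for a lncRNA, so no interval is given for either. The other 8 with tau of 1 had 9 to 180 recovered reads in heart. A tau of 1 thus covered both transcripts with many reads in heart and transcripts with few. For those with few, absence from the other organs and a level below detection at this depth cannot be told apart. The observed level of TCONS_00717504 in heart (17 reads) was 3.42 times that of 3 reads in ovary, where it was at 0. Ovary was the organ library with the fewest total reads, but 8241185 of them fell on listed features, against 6937621 in heart.

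At the other end, tau was 0.9003 for TCONS_00457688, 0.902 for TCONS_00788660 and 0.907 for TCONS_00542936. TCONS_00457688 was at 1.04 RPKM in heart (13 reads, 0.554 to 1.78) and 0.598 in testis (8 reads, 0.258 to 1.18), so that its intervals overlapped. TCONS_00542936 was at 1.5 RPKM in heart (18 reads) and 0.330 in kidney (4 reads). The 3 lncRNAs just outside the limit were TCONS_00049863, with tau of 0.898, TCONS_00844407, with 0.896, and TCONS_00791005, with 0.890. TCONS_00049863 was at 1.40 RPKM in heart (114 reads) and at most 0.117 in another organ, a wider gap than that of the 3 members just inside, but it was above 0 in 4 other organs. TCONS_00844407 was at 1.48 RPKM in heart (11 reads) and 0.896 in adipose tissue, and TCONS_00791005 at 4.05 in heart (31 reads) and 0.730 in testis. At the limit of 1 RPKM, TCONS_00542119 lay just inside at 1.01 RPKM, and TCONS_00102867 just outside at 0.985.

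The restricted lncRNAs were a minority of those with their peak in heart. Of 133 lncRNAs highest in heart at 1 RPKM or more, 36 (27.1%) met the tau limit, and the share was 26.6% in kidney (79 of 297), 16.0% in lung (35 of 219), 29.8% in liver (31 of 104) and 34.5% in longissimus dorsi (19 of 55). Over all 9 organs it ran from 11.1% in spleen (16 of 144) to 69.7% in testis (1282 of 1840), with 25.1% in ovary and 25% in adipose tissue. For Ensembl genes highest in heart it was 3.96% (21 of 530). The rule fixes these counts, and they are given without a test.

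The muscle stages at day 0 and day 30 were not used by the rule. At day 0, 7 of the 36 members (19.4%) were above 0 RPKM, against 15.5% of all lncRNAs. At day 30, 3 members (8.33%) were above 0, against 17.6%, and at day 240, a library the rule used, 4 members (11.1%), against 15.3%. Of the kidney-, lung- and liver-restricted lncRNAs under the same rule, 2.53%, 0% and 6.45% were above 0 at day 0. Their shares were 13.9%, 5.71% and 6.45% at day 30 and 2.53%, 0% and 6.45% at day 240. With at least 3 reads as the limit, 5 members were found in the newborn, 1 in the 30-day and 3 in the 240-day muscle, against 12.7%, 10.3% and 10.4% of all lncRNAs. In total 26 members were at 0 in all 3 stages and 10 (27.8%) were above 0 in at least 1, close to the 26.6% of all lncRNAs. Of the other 97 lncRNAs highest in heart, which missed the tau limit, 68 (70.1%) were above 0 in at least 1 stage, but the limit itself was set on muscle at day 240 among the organs. Summed over the members, RPKM was 5.09 in the newborn, 0.477 in the 30-day and 1.55 in the 240-day library, beside 119 in heart, where the rule chose them to be high. TCONS_00717503 alone made up 4.04 of the sum at day 0.

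Over the stages of longissimus dorsi, TCONS_00717503 was highest at birth, lowest at day 30 and intermediate at day 240. Day 0 was 15 times as high as day 30 (5.67 to 56.4) and 3.65 times as high as day 240 (2.27 to 6.12). Day 240 was in turn 4.12 times as high as day 30 (1.40 to 16.4). These ratios compare single libraries. When RPKM was scaled to the same sum or by the median ratio, all features shifted on the log2 scale by 0.60 or 0.85 for day 30 against day 0. The shift was -0.68 or -0.17 for day 240 against day 30, and -0.08 or 0.68 for day 240 against day 0. The difference of this transcript on the log2(RPKM + 0.1) scale was -3.49 for day 30 against day 0, 1.71 for day 240 against day 30 and -1.78 for day 240 against day 0. Each was larger in size than the shift of all features.

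Its neighbour in the numbering, TCONS_00717504, of 246 nt, showed the same order at birth with fewer reads. It was at 1.92 RPKM in heart (17 reads, 1.12 to 3.08) and 0.682 in muscle at day 0 (6 reads, 0.250 to 1.49), at 0 at day 30 and day 240, and at 0 in the 7 other organs. The intervals of heart and muscle at day 0 overlapped for this transcript, and the ratio of heart to muscle was 2.82 (1.06 to 8.72). The observed level at day 0 was 1.37 times that of 3 reads at day 30 and 1.83 times that of 3 reads at day 240. These values leave out the counting error of the 6 reads. The interval of day 0 overlapped those of day 30 (up to 0.613) and day 240 (up to 0.459), so the order of the stages is not secured for this transcript. The mixtures held 0.387 RPKM (muscle, 6 reads) and 0.413 (tissues, 11 reads). Whether both transcripts come from 1 locus was not tested, so they are not counted as independent of each other.

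TCONS_00041775, of 804 nt, was above 0 at day 240 alone among the stages. It was at 1.73 RPKM in heart (50 reads, 1.28 to 2.28), 0.343 in muscle at day 240 (9 reads, 0.157 to 0.651), and at 0 at day 0 and day 30 and in the 7 other organs. The observed level at day 240 was 3.29 times that of 3 reads at day 0 and 2.25 times that of 3 reads at day 30. These values leave out the counting error of the 9 reads. The interval of day 240 overlapped that of day 30 (up to 0.188) but not that of day 0 (up to 0.128). The mixtures held 0.138 RPKM (muscle, 7 reads) and 0.0804 (tissues, 7 reads). TCONS_00542119 was at 1.01 RPKM in heart (16 reads, 0.578 to 1.64), 0.186 in muscle at day 30 (2 reads), 0 at the other stages, 0.325 in the muscle mixture (9 reads) and 0.273 in the tissue mixture (13 reads). Apart from these and TCONS_00051495, no member exceeded 0.1 RPKM in a muscle stage.

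**Figure D4:**
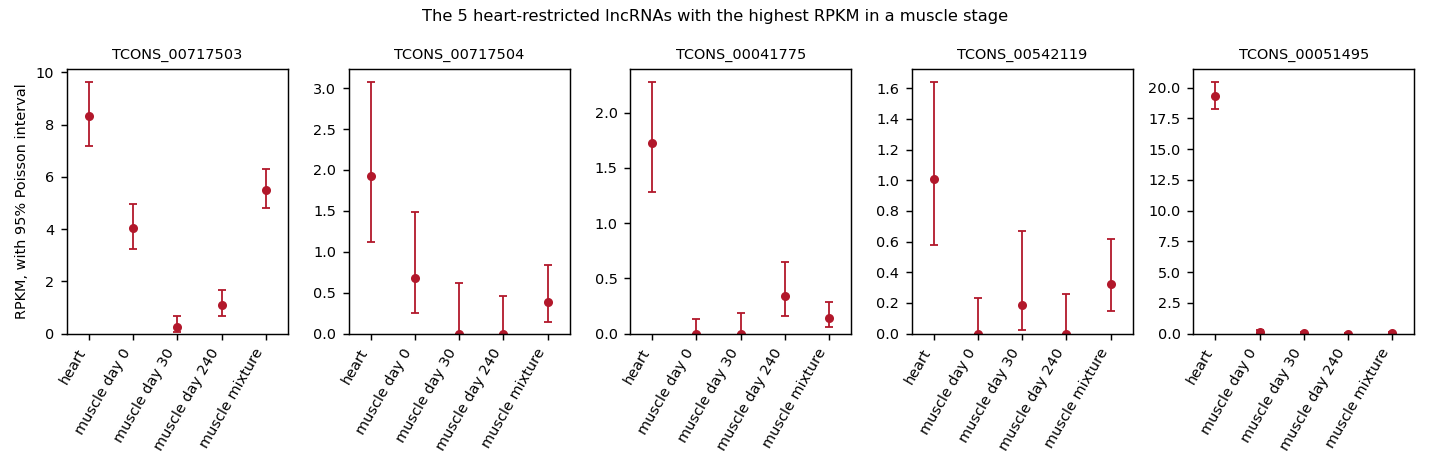
Each panel gives RPKM with the exact Poisson 95% interval of the recovered reads for a heart-restricted lncRNA in heart, in the 3 stages of longissimus dorsi (postnatal day 0, 30 and 240) and in the muscle mixture, 1 library each. The vertical axes start at 0 and differ between panels. TCONS_00717503 goes from 4.04 RPKM at day 0 through 0.268 at day 30 to 1.10 at day 240, while TCONS_00051495 is near 0 in all muscle libraries beside 19.3 in heart.

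Counted by the 2-fold limit on the log2(RPKM + 0.1) scale, few members could be compared between stages. At day 30, 1 of 4 was higher than at day 0 and 2 were lower, beside 32.1% and 41.0% of all lncRNAs compared. Against day 30, 2 of 3 were higher at day 240 and 1 lower, beside 29.2% and 38.2%. Against day 0, 1 of 4 was higher at day 240 and 3 were lower, beside 25.4% and 45.2%. With a pseudocount of 1 in place of 0.1, the differences left were those of TCONS_00717503 between birth and each of the later stages, both lower. Apart from this transcript, the members counted had 9 reads or fewer in the higher stage.

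The tissue mixture, which the rule did not use, held most of the members. In it 33 of 36 (91.7%) were above 0, against 60.9% of all lncRNAs, and 30 had at least 3 reads, against 48.3%. Of the lncRNAs restricted to lung, kidney and liver under the same rule, 77.1%, 89.9% and 90.3% were above 0 there. All lncRNAs under the rule have at least 1 RPKM in an organ, which the catalogue as a whole does not. The 3 members at 0 in both mixtures were TCONS_00494470, TCONS_00088687 and TCONS_00267724, of which the first had 180 reads in heart.

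Levels in the tissue mixture were lower than in heart, where the rule chose them to be high, for 36 of 36 members. The same count was not made for other lncRNAs. The median ratio of mixture to heart was 0.0772, against 0.273 for the 97 other lncRNAs highest in heart and 0.536 for all 369 lncRNAs of at least 1 RPKM in heart. For the kidney-, lung- and liver-restricted lncRNAs, the median ratio to their own organ was 0.0571, 0.0341 and 0.0299. The 21 Ensembl genes under the same rule had a median ratio to heart of 0.789. The highest levels of members in the tissue mixture were those of TCONS_00717503 (2.07 RPKM), TCONS_00240886 (1.76) and TCONS_00051480 (1.60). TCONS_00240886 was at 3.01 RPKM in heart (102 reads, 2.45 to 3.65), 0.275 in liver (8 reads) and 0.175 in spleen (6 reads), and heart was 1.71 times the mixture (1.33 to 2.19). For TCONS_00803269, at 1.71 RPKM in heart (91 reads) and 1.47 in the mixture (236 reads), the ratio of heart to mixture was 1.16 and its interval included 1 (0.901 to 1.48).

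The muscle mixture held 23 of 36 members (63.9%), against 45.9% of all lncRNAs. For comparison, 19 of 79 kidney-restricted (24.1%), 7 of 35 lung-restricted and 9 of 31 liver-restricted lncRNAs (29.0%) were above 0 in it. Of the 23 members, 13 had 1 to 3 reads there, and 15 were at 0 in all 3 stages of longissimus dorsi. With at least 3 reads as the limit, 13 members (36.1%) were found, near the 33.7% of all lncRNAs, and 15.2% of the kidney-restricted, 8.57% of the lung-restricted and 16.1% of the liver-restricted lncRNAs. At 0.1 RPKM or more, 8 members (22.2%) were found, below the 27.6% of all lncRNAs. At that limit it was 7.59% of the kidney-restricted, 11.4% of the lung-restricted and 9.68% of the liver-restricted lncRNAs. The mixture has 63015726 total reads, above those of each stage, and the higher number of members in it was not compared at the same depth.

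Genes of the heart were present in the muscle mixture to different extents. ACTC1, the actin of heart muscle that developing skeletal muscle also makes, was at 344 RPKM in it, 229 in heart, and 84.9 RPKM in newborn longissimus dorsi, 7.23 at day 30 and 0.939 at day 240. MYL4, which developing skeletal muscle makes as well, was at 92.2 RPKM in the mixture, 2.42 in heart and 0.505 at day 0, and at 0 in the later stages. TNNT2 was at 42.5 RPKM in the mixture, against 4075 in heart and 4.03 to 6.07 in the 3 stages. The heart genes MYBPC3, TBX20 and CORIN were at 0.130, 0.0118 and 0.0470 RPKM in the muscle mixture, against 236, 7.47 and 11.3 in heart. NPPB, a natriuretic peptide, was at 0 in the muscle mixture, but its level in heart was also low, at 0.996 RPKM. The part of young muscle or of heart RNA in the members' levels in this mixture was not tested.

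The highest member in the muscle mixture was TCONS_00717503 at 5.52 RPKM, followed by TCONS_00717504 at 0.387 and TCONS_00542119 at 0.325. For TCONS_00717503 the muscle mixture was 1.37 times muscle at day 0 (1.06 to 1.77) and 2.66 times the tissue mixture (2.14 to 3.32). For TCONS_00717504 the muscle mixture did not differ from the tissue mixture beyond counting error, at a ratio of 0.938 (0.285 to 2.77). The same ratio was 1.19 for TCONS_00542119, and its interval also included 1 (0.449 to 3.01). In all, 27 members were higher in the tissue mixture, whereas 6 were higher in the muscle mixture. This was not counted for other lncRNAs, so it cannot be called particular to the members. Detection of all lncRNAs also differed, at 60.9% among the mixed tissues against 45.9% among the mixed muscles. For 13 members the level in the muscle mixture rested on 1 to 3 reads. The members' summed RPKM came to 16.8 among the mixed tissues (14.1% of heart) and 7.76 among the mixed muscles (6.55%).

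By their numbers in the assembly, 15 members had another listed lncRNA within 20 numbers. Among these were 2 pairs of members, TCONS_00051480 with TCONS_00051495 and TCONS_00717503 with TCONS_00717504. How many of all listed lncRNAs have such a neighbour was not counted, so having one cannot be called particular to the members. The first pair differed in level, at 4.83 and 19.3 RPKM in heart, and both were above 0 in both mixtures. Next to the second pair, TCONS_00717502 was at 1.3 RPKM in heart but highest in testis. Of 22 neighbours that were not members, 6 were at 0 in all organs, and 3 of the other 16 were highest in heart, against 4.14% of the lncRNAs outside the set that were above 0 in an organ. Numbers of assembled transcripts are a stand-in for position only, and the positions were not analysed here.

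Under the same rule, 21 Ensembl genes were restricted to heart, 10 of which had a symbol. The 10 highest included CCK, a peptide hormone of gut and brain, at 38.8 RPKM in heart (944 reads), TECRL, a protein of the endoplasmic reticulum linked to inherited arrhythmia, at 31.3 (904 reads), SERPINB2, an inhibitor of plasminogen activators, at 13.8 (945 reads), TBX20 at 7.47 (363 reads) and PDIA2, a protein disulfide isomerase, at 4.35 (250 reads). ENSSSCG00000003430 at 36.3 RPKM (600 reads) and ENSSSCG00000025409 at 20.5 (502 reads) were not paired with a symbol. TECRL was at 4.59, 2.90 and 4.38 RPKM in muscle at day 0, 30 and 240 and at 19 in the muscle mixture. ENSSSCG00000025409 was at 35.9, 3.24 and 4.90 RPKM in the same stages and at 23.1 in the muscle mixture. Birth was thus the highest of the 3 libraries, as for TCONS_00717503. Day 30 was below day 240 in RPKM as deposited, but their order was not computed under the other scalings for this gene. Scaling to the same sum shifted all features by -0.68 on the log2 scale for day 240 against day 30. The genes had a median of 2.90 RPKM in heart, beside 2.16 for the lncRNAs, and 11 of 21 were above 0 in a muscle stage, beside 70.9% of all Ensembl genes. Of the 8 genes of the contractile apparatus, MYL4 met the limit with a tau of 0.937 at 2.42 RPKM, and the other 7 did not, among them TNNT2 with a tau of 0.834 and MYBPC3 with 0.853.

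The set changed in its muscle content when longissimus dorsi was left out of tau. It then held 49 lncRNAs, of which 33 were among the 36, and the 16 gained included 9 that were higher in muscle at day 240 than in heart and 13 above 0 in all 3 stages. A lncRNA can be gained in this way only if its level in muscle at day 240 had kept it out. The muscle content of the 16 is therefore a description of the change in the rule. The share of all lncRNAs above 0 in all 3 stages was not counted. The highest of the 16 in heart was TCONS_00323177, at 219 RPKM in heart, beside 893, 626 and 372 in muscle at day 240, 30 and 0. It was chosen for mention after its values were seen. The 3 lost were the members nearest to the tau limit, TCONS_00457688, TCONS_00542936 and TCONS_00788660. The level of TCONS_00323177 in heart was thus above that of each of the 36 members, which reached 19.3 RPKM at most.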

How the data were processed

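Total RNA was sequenced in 13 libraries, 11 from single tissues and 2 from mixtures, with 1 library per group as the sample labels give it. Ribosomal RNA was depleted and strand-specific libraries were made with SMART or dUTP protocols, without the protocol of each library being named. According to the methods and the submitters' notes, the authors used TopHat 1.3.2 for mapping and Cufflinks for assembly, left out transcripts that were annotated, short, of 1 exon or potentially coding, obtained read counts with htseq-count and deposited RPKM values. The genome build of these libraries is not given in the sources used here. The 32420 features were 10813 lncRNAs and 21607 Ensembl genes.

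Totals of reads were found as whole numbers (largest distance 1.49e-08) from ratios of RPKM between libraries, and the length of each feature as the smallest whole number compatible with whole reads throughout, for 29462 of 29462 features above 0. The recovery was tested on simulated data of the 29462 features, where it returned 13 of 13 totals, 21891 of 21974 lengths where 4 or more libraries held reads and 5603 of 7158 where 1 to 3 did. For features in 1 to 3 libraries, lengths and reads are lower bounds. A library at 0 was limited at 3 reads, and fold values against this limit leave out the counting error of the higher library. Stages were compared on the log2(RPKM + 0.1) scale, at 2-fold, among features of at least 0.1 RPKM in either library. This scale understates the change of low features.

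The members and lists were chosen with earlier results of these data known. Named lncRNAs were the 12 highest in heart, the 5 highest in a muscle stage, the 3 highest in each mixture, the 3 highest (10 were tied) and 3 lowest by tau and the 3 just outside the tau limit. Named genes were those highest in heart in each list and those with a symbol, and 2 without, among the 10 highest under the same rule. Other lncRNAs and genes named, such as MYBPC3, KCNJ5 and TBX5, were chosen after their values were seen. Gene symbols came from a reference table, which named 11654 of 21607 identifiers and 49 of 86 list genes. A further marker list is not reported here. Alternatives were other pseudocounts, limits and scalings, organs left out, and at least 20 reads in heart, which was added after seeing the data. Python 3.11.15, numpy 2.4.6, pandas 2.3.3, scipy 1.17.1 and matplotlib 3.10.9 were used.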

Additional observations from a re-analysis of the deposited data

How the results depend on the processing

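The number of heart-restricted lncRNAs depended on the limits, as the rule fixes it. In place of 36, it was 61 with a pseudocount of 1, 137 with no filter on low values, 19 with at least 2 RPKM in heart, 22 with tau of at least 0.95, 56 with tau of at least 0.85 and 62 with RPKM scaled by the median ratio (35 of the 36 shared). It was 26 with a pseudocount of 0.01, 34 with RPKM scaled to the same sum (31 shared), 49 with skeletal muscle left out (33 shared), 45 with testis and ovary left out (32 shared) and 24 with at least 20 reads in heart, an alternative added after seeing the data. At 0.1 RPKM or more, 3 members (8.33%) were found in muscle at day 0, 2 (5.56%) at day 240 and 8 (22.2%) in the muscle mixture. The shares of all lncRNAs at this limit were 11.1%, 9.16% and 27.6%. With at least 3 reads, 1 member (2.78%) was found at day 30 and 13 (36.1%) in the muscle mixture, against 10.3% and 33.7% of all lncRNAs. With a pseudocount of 1, the members at least 2-fold higher between stages were 0 in all 3 comparisons, and those lower were 1 at day 30 against day 0, 0 at day 240 against day 30 and 1 at day 240 against day 0. No paired analysis was possible because each group had 1 library and no result came from a test. For the same reason no replicate could be left out. The median of recovered reads in heart, 42.5, limits what can be said of low levels in other organs, and 12 of 36 members had fewer than 20 recovered reads. For members above 0 in 1 to 3 libraries these reads are lower bounds.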
